A study of Mus musculus with 10 samples.

Results

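The 9 genes described here encode lysosomal cathepsins (Ctsb, Ctsl, Ctsd, Ctss, Ctsz and Ctsk), lysosomal membrane proteins (Lamp1 and Lamp2) and the transcription factor Tfeb. They were taken by symbol from a list drawn up with earlier results of these data known. All 9 were rows of the count table of 24421 genes. Each passed the filter on low counts, as did 13688 genes in all. RNA came from a piece of pancreas tail of female mice aged 12 weeks, with 1 library per mouse. All mice carried Ptf1aCreER, a tamoxifen-inducible Cre recombinase expressed from Ptf1a, which the enzyme-producing acinar cells use, and the nuclear fluorescent reporter nTnG. The 3 libraries labelled Insr WT came from Insrw/w mice with 0 floxed alleles of the insulin receptor gene, the 3 labelled Insr Het from Insrw/f mice with 1, and the 4 labelled Insr KO from Insrf/f mice with 2. Cre acts in cells that express Ptf1a, so other cells of the piece keep a floxed allele intact. Libraries are named by label and mouse number, as in WT-2404.

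Lysosomes are acidic compartments in which proteases, glycosidases and lipases break down material from endocytosis and autophagy. In acinar cells, cathepsin B cleaves trypsinogen, the inactive precursor of trypsin, to active trypsin, while cathepsin L cuts trypsinogen into inactive fragments, and cathepsin D activates cathepsin B. Mixing of lysosomal enzymes with digestive zymogens is a long-known feature of experimental pancreatitis. Cathepsin S is a protease of antigen-presenting cells, cathepsin K is known for degrading collagen, and TFEB binds E-box sequences upstream of many lysosomal genes.

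The windows around the RefSeq starts of these genes differ in the sequences that such factors recognise, so 4 of them are shown. Of the 9 genes, 8 had at least 1 entry among the RefSeq promoter windows (GRCm38.p6, the patched form of mm10), with 10 windows in all. Each window has 250 bases before and 50 bases after a gene start. The sequences below end 10 bases after the start. They run 5′ to 3′ on the gene's strand, in lower case. Capitals mark the E-box CACGTG, the interferon-type element (GAAA, any 2 bases, GAAA) and the ETS-type element GAGGAAGTG, each searched on both strands with overlaps allowed.
Lamp1, chr8:13158911-13159170, plus strand: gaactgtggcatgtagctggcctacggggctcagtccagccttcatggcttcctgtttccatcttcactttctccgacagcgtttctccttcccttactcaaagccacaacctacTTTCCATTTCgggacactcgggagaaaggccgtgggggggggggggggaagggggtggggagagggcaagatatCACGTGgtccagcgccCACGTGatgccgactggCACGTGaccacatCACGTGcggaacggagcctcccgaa
Ctsd, chr7:142387818-142388077, minus strand: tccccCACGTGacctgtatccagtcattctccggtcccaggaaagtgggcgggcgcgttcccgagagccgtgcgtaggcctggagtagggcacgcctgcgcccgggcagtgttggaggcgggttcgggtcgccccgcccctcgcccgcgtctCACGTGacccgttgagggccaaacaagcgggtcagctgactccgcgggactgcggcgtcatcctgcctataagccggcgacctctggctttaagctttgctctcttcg
Ctsl, chr13:64370511-64370770, minus strand: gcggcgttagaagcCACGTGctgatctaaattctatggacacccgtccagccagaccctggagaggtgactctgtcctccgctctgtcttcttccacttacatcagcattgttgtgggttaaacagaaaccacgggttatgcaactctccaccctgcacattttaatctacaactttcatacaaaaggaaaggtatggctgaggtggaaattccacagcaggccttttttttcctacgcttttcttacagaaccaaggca
Ctss, chr3:95526536-95526795, plus strand: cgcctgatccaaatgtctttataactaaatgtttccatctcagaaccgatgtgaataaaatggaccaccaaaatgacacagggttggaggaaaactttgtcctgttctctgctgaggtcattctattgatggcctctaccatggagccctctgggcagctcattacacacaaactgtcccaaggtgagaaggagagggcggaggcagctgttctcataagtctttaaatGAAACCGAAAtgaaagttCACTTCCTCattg

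Lamp1 held 4 E-boxes, which began 61, 45, 28 and 15 bases before the start. Ctsd held 2, at 245 and 98 bases, and Ctsl held 1, at 236 bases. These distances are from the RefSeq starts. By the GENCODE gene positions given below, the whole Ctsl window and the Ctsd E-box at 98 bases lie inside the gene. Of all 32851 promoter windows, 7.15% held an E-box. All 4 of Lamp1 and both of Ctsd had a flanking base that completed TCACGTG, a form held by 3.77% of windows, and the E-box of Ctsl did not. The E-box with GT before it and AC after it, the full palindrome of the lysosomal gene motif, held by 0.326% of windows, was in 0 of the 10 windows. The Ctss window held no E-box. It held an interferon-type element 21 bases before the start (3.44% of all windows) and an ETS-type element that began 3 bases before it (1.57%). The windows of Ctsz, Ctsk, Lamp2 and Tfeb held none of these letters, and Lamp1 held a further interferon-type element at 135 bases. Such matches describe the letters only.

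In the GENCODE vM21 annotation (GRCm38), Ctsb lies at chr14:63122462-63145923 and Ctsl at chr13:64359337-64370890. Ctsd is at chr7:142375911-142388038 and Ctsz at chr2:174427493-174439039. Ctsk (chr3:95499256-95509362) and Ctss (chr3:95526786-95556403) are neighbours on the same strand. Lamp1 is at chr8:13159161-13175338, Lamp2 at chrX:38401357-38456454 and Tfeb at chr17:47737030-47792419. Ctsb overlaps Fdft1, Ctsz overlaps Nelfcd and Lamp1 overlaps Grtp1, all on the opposite strand. Ctsl overlaps the antisense gene Gm47123 and the processed pseudogene Gm49230, Ctss the pseudogene Hmgb1-ps5, and Ctsd the same-strand gene model Gm49369. How counting treated strand and overlaps is not given in the sources used here, which limits how far their values can be read. Ctsk, Lamp2 and Tfeb overlap no other gene.

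The libraries held 11718559 to 19024351 gene counts. Digestive enzymes (33 genes of the lists for trypsinogens and other enzymes) took 16.4% of them in WT-2404 and 61.0% to 80.5% in the other 9 libraries, so WT-2404 stands apart. Its factor for library scaling (TMM) was 3.53, against 0.596 to 1.56 elsewhere. Of the acinar identity factors, which define the labelled tissue's main cell type, 47.1 counts-per-million (CPM) in sum were found in WT-2404 and 415 to 811 CPM in the others. Insr itself ran from 21.0 to 40.5 CPM in WT, 28.2 to 44.2 in Het and 22.7 to 35.4 in KO libraries. These ranges overlap, and gene counts cannot show whether exons were lost in acinar cells, so they do not check the labels. In such bulk samples, fewer cells of a type and less RNA per cell cannot be told apart.

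**Figure D1:**
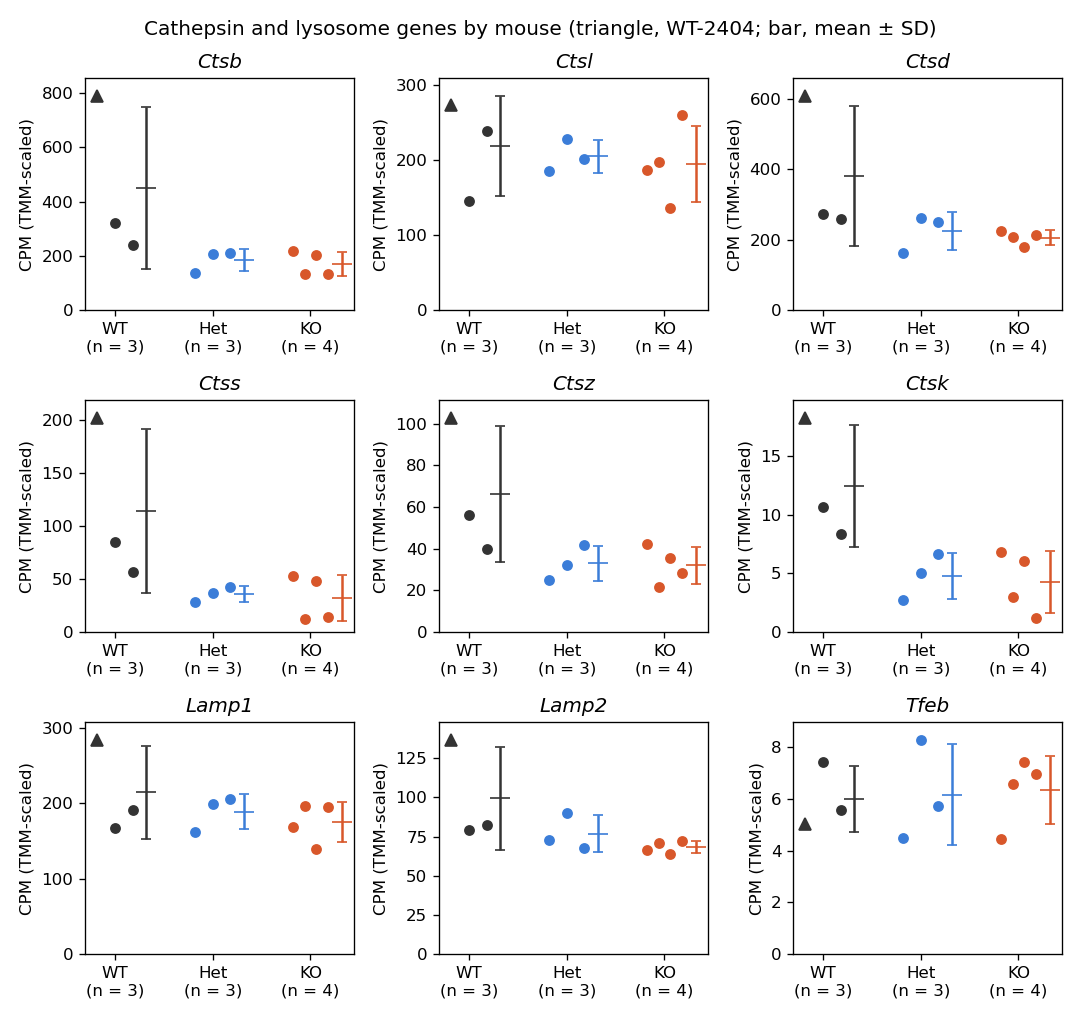
Level of each of the 9 genes in every mouse, as TMM-scaled counts-per-million (CPM, linear axis from 0) by label. Points are mice, triangles mark WT-2404, and bars show mean ± SD. WT-2404 is the highest library for 8 of the genes, and for Tfeb it lies within the others.

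Ctsb, which encodes the trypsinogen-activating cathepsin B, was at 790.3, 319.8 and 238 CPM in the WT libraries (WT-2404, WT-1860 and WT-2067 in that order here and below). Het-2066, Het-1770 and Het-2042 had 138, 207 and 209 CPM, and KO-2079, KO-2070, KO-2124 and KO-2126 had 216, 133, 202 and 134 CPM. Other genes are given in the same order. Every WT library was above every Het and every KO library, and the Het and KO ranges overlapped. WT libraries averaged 449.5 ± 298 CPM (SD, n = 3), Het libraries 185 ± 40.4 CPM (SD, n = 3) and KO libraries 171 ± 43.9 CPM (SD, n = 4). KO against WT gave a log2 fold change of -1.39 (SE 0.39), with an edgeR adjusted p of 0.116 that does not pass 0.05. Without WT-2404 it was -0.70 (SE 0.30, edgeR adjusted p = 0.513).

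Ctsl, which encodes the trypsinogen-degrading cathepsin L, was at 274, 145 and 239.6 CPM in WT libraries. It was at 186, 228 and 201 CPM in Het libraries and at 187, 198, 136 and 260.4 CPM in KO libraries. The 3 ranges overlapped, and the lowest library, KO-2124, lay close to WT-1860. The log2 fold change of KO against WT was -0.17 (SE 0.29, edgeR adjusted p = 0.747), and it was 0.0073 without WT-2404. An SE of this size leaves room for a change in either direction.

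Ctsd encodes cathepsin D, an aspartic protease, unlike the other 5 cathepsins, which are cysteine proteases. It was at 609.8, 272 and 259.9 CPM in WT, 163, 262 and 252 in Het and 226, 207, 178 and 214 in KO libraries. WT and KO libraries did not overlap, but the gap was small beside the distance of WT-2404 from the other WT libraries. The log2 fold change of KO against WT was -0.88 (SE 0.33, edgeR adjusted p = 0.149) and -0.37 without WT-2404.

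Ctss had the largest difference of the 9 genes between KO and WT libraries. Its levels were 202, 84.9 and 56.4 CPM in WT libraries, 28.1, 37.0 and 42.8 CPM in Het libraries and 53.0, 12.5, 48.6 and 14.1 CPM in KO libraries. The KO libraries fell into a pair near 50 and a pair near 13 CPM, all below the lowest WT library. KO against WT gave a log2 fold change of -1.83 (SE 0.56, edgeR adjusted p = 0.122), and -1.11 (SE 0.55) without WT-2404.

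Ctsk was the rarest cathepsin of the set. Its levels were 18.3, 10.7 and 8.39 CPM in WT, 2.72, 5.03 and 6.63 in Het and 6.86, 3.03, 6.04 and 1.21 in KO libraries. The last value, in KO-2126, rests on 12 counts. WT libraries lay above all others, and the log2 fold change of KO against WT was -1.50 (SE 0.48, edgeR adjusted p = 0.126). Without WT-2404 it was -1.09 (SE 0.51).

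Ctsz encodes cathepsin Z, a carboxypeptidase. It was at 103, 56.1 and 39.9 CPM in WT, 25.2, 32.05 and 41.7 in Het and 42.3, 21.9, 35.6 and 28.6 in KO libraries. WT-2067 lay within the Het and the KO range, so the groups overlapped. The log2 fold change of KO against WT was -1.05 (SE 0.32, edgeR adjusted p = 0.121), and it was -0.57 without WT-2404.

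Lamp1 and Lamp2 encode the abundant glycoproteins of the lysosomal membrane. Lamp1 was at 285, 167 and 192 CPM in WT, 162, 199.7 and 205 in Het and 169, 197, 139.7 and 196 in KO libraries, with overlapping ranges. Its log2 fold change of KO against WT was -0.29 (SE 0.26, edgeR adjusted p = 0.507) and -0.040 without WT-2404. Lamp2 was at 137, 78.9 and 82.1 CPM in WT, 72.8, 90.3 and 67.7 in Het and 66.2, 70.8, 63.9 and 72.4 in KO libraries. All KO libraries lay below all WT libraries, by a small margin between KO-2126 (72.4 CPM) and WT-1860 (78.9 CPM). Its log2 fold change of KO against WT was -0.54 (SE 0.24) with an edgeR adjusted p of 0.193, and -0.24 without WT-2404.

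Tfeb, the regulator, was low in every library, with 50 to 300 counts. WT libraries averaged 6.01 ± 1.27 CPM (SD, n = 3), Het libraries 6.16 ± 1.95 CPM (SD, n = 3) and KO libraries 6.36 ± 1.32 CPM (SD, n = 4). The ranges were 5.01 to 7.43, 4.47 to 8.29 and 4.45 to 7.42 CPM, and they overlapped almost wholly. The log2 fold change of KO against WT was 0.085 (SE 0.27, edgeR adjusted p = 0.870). It was -0.038 without WT-2404 and also changed sign with other scalings.

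In KO against WT, 0 of the 9 genes passed an adjusted p of 0.05 in edgeR, where 0% of the 13688 genes tested did. At an unadjusted p under 0.05, 6 of the 9 were lower in KO libraries (Ctsb, Ctsd, Ctss, Ctsz, Ctsk and Lamp2) and 0 were higher. The background at that level is 23.5% of all genes, of which 13.9% were lower and 9.6% higher. KO and WT ranges did not overlap for 5 of the 9, all lower in KO libraries, beside 15.9% of all genes (9.17% lower and 6.74% higher). By sign alone, 8 of the 9 were lower in KO libraries, as were 48.2% of all genes. The 9 genes were chosen with earlier results of these data known. Their counts beside the shares of all genes are therefore descriptions and not tests, here and in the other comparisons. The 9 genes had a median log2 fold change of -0.88, and the genes tested as a whole one of 0.025. With WT-2404 left out, Ctsb alone had an unadjusted p under 0.05 (1 gene of 9, beside 9.42% of all genes), and the median was -0.37. With each library's enzyme share as a covariate in edgeR, 0 of the 9 had such a p (beside 5.59% of all genes), the median was -0.29 and Ctsb was at -0.49 (SE 0.26).

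DESeq2 called 4 of the 9 in KO against WT, namely Ctsb (adjusted p = 0.0142), Ctss (0.0186), Ctsz (0.0406) and Ctsk (0.0424), at log2 fold changes of -1.43, -1.86, -1.08 and -1.55. It called 1015 of the 18135 genes it tested (5.60%). In edgeR without WT-2067, the WT library with the most enzyme counts, Ctsb, Ctsd, Ctss and Ctsz passed (4 genes, adjusted p = 0.0224, 0.0472, 0.0438 and 0.0246), beside 1933 of 14172 genes tested (13.6%). Calls for the cathepsins therefore changed with the tool and with single WT libraries.

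Het against WT gave values close to those of KO against WT, and both use the same WT libraries. The log2 fold changes were -1.67 (SE 0.61) for Ctss, -1.38 (SE 0.53) for Ctsk, -1.28 (SE 0.43) for Ctsb, -1.01 (SE 0.35) for Ctsz and -0.75 (SE 0.36) for Ctsd. Those of Lamp2, Lamp1, Ctsl and Tfeb were -0.37, -0.18, -0.099 and 0.038. None passed in edgeR (0 of 9, lowest adjusted p = 0.183, beside 0% of all genes). At an unadjusted p under 0.05 there were 4 of 9 (Ctsb, Ctss, Ctsz and Ctsk), beside 19.8% of all genes. All 4 were lower in Het libraries, as were 11.6% of all genes, while 8.26% were higher. Without WT-2404, 0 of 9 had such a p, beside 7.87% of all genes, and with the enzyme share as a covariate 0 of 9, beside 3.70% of all genes and at a median of -0.15. Ranges did not overlap for Ctsb, Ctss and Ctsk, 3 of 9, beside 24.8% of all genes (13.5% lower and 11.3% higher). By sign alone, 8 of 9 were lower in Het libraries, as were 49.7% of all genes, and the median was -0.75.

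No difference between KO and Het libraries was detected in any of the 9 genes. Log2 fold changes of KO against Het ran from -0.17 (Lamp2, SE 0.24) to 0.047 (Tfeb, SE 0.27), and their median was -0.11. In edgeR, 0 of the 9 passed (0% of all genes), and 0 had an unadjusted p under 0.05, where 0.752% of all genes did (0.351% lower and 0.402% higher). Ranges overlapped for all 9, and did not for 2.46% of all genes (1.16% lower and 1.3% higher). By sign alone, 8 of 9 were lower in KO than in Het libraries, as were 48.6% of all genes. SEs of 0.24 to 0.56 mean that a moderate difference would not have been detectable.

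**Figure D2:**
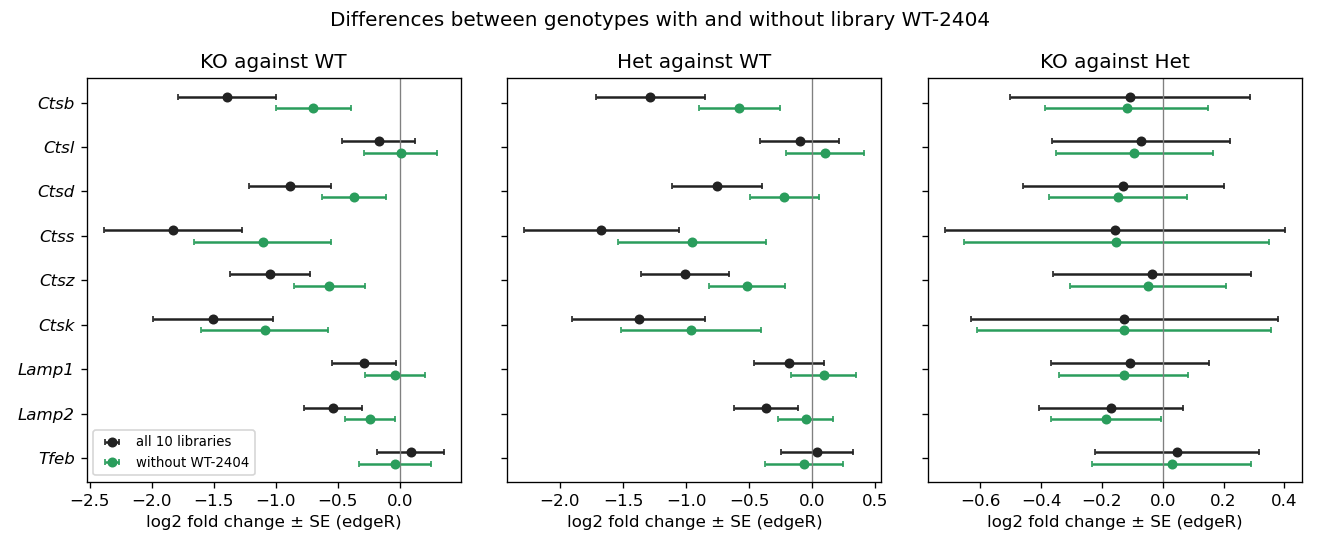
Log2 fold change (edgeR, points) ± SE (bars) of the 9 genes in the 3 comparisons, with all 10 libraries (black) and without WT-2404 (green); the horizontal axes differ in range. In KO against WT and Het against WT the values of Ctsb, Ctsd, Ctss, Ctsz and Ctsk move towards 0 without WT-2404, and KO against Het lies around 0 for all 9.

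The balance of cathepsin B and L transcripts was compared as a ratio of counts within each library, which no scaling factor alters. There were 2.88, 2.20 and 0.995 Ctsb counts per Ctsl count in WT libraries. Het libraries had 0.743, 0.908 and 1.04, and KO libraries 1.16, 0.673, 1.48 and 0.515. WT-2404 and WT-1860 were above all other libraries, and WT-2067 was in the range of the rest. As log2 ratios, WT libraries averaged 0.89 ± 0.80 (SD, n = 3), Het libraries -0.17 ± 0.24 (SD, n = 3) and KO libraries -0.19 ± 0.70 (SD, n = 4). The KO minus WT difference was -1.07, and its two-sided exact permutation p over 35 splits was 0.143, which became 0.286 after adjustment over 12 tests of 4 ratios in 3 comparisons.

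The ratios of the cathepsins to trypsinogen, their substrate, varied most in WT, where the trypsinogen level itself varied widely. Summed trypsinogens were at 11806, 60261 and 129812 CPM in WT, 124242 to 184708 in Het and 64703 to 187314 in KO libraries. Ctsb counts per 1000 trypsinogen counts (9 genes summed) were 66.9, 5.31 and 1.84 in the WT libraries. They were 1.11 to 1.64 in Het and 0.715 to 3.12 in KO libraries. Ctsl counts per 1000 were 23.2, 2.41 and 1.85 in WT, 1.24 to 1.58 in Het and 1.09 to 2.11 in KO libraries. The KO minus WT differences in log2 ratio were -2.73 for Ctsb (exact permutation p = 0.114) and -1.66 for Ctsl (exact permutation p = 0.0571), both 0.274 after adjustment. Without WT-2404 they were -1.26 and -0.50. The 9 trypsinogen genes themselves were all higher in KO libraries by sign, at a median of 0.90 on the log2 scale, and 0 passed in edgeR. Without WT-2404, 8 of the 9 were higher and the median was 0.40.

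The ratio of Lamp2 to Lamp1 counts was 0.481, 0.472 and 0.429 in WT, 0.449, 0.452 and 0.330 in Het and 0.392, 0.360, 0.458 and 0.370 in KO libraries. KO-2124 lay among the WT libraries, and the other KO libraries lay below them. The KO minus WT difference in log2 ratio was -0.23 (exact permutation p = 0.0857, 0.274 adjusted). The smallest p that 3 and 4 mice allow is 0.0286. At that p, even all 4 ratios of KO against WT together would not pass the adjustment over 12 tests. They could pass only if ratios of KO against Het reached it too, and Het against WT cannot go below 0.1. The adjusted p therefore could not have shown a difference in these ratios between KO and WT libraries alone. In Het against WT the 4 differences were -1.06 for Ctsb to Ctsl, -2.77 and -1.72 for Ctsb and Ctsl to trypsinogens and -0.18 for Lamp2 to Lamp1, at exact permutation p of 0.2, 0.1, 0.1 and 0.4. KO minus Het differences lay between -0.048 and 0.058, with exact permutation p from 0.771 to 0.971.

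**Figure D3:**
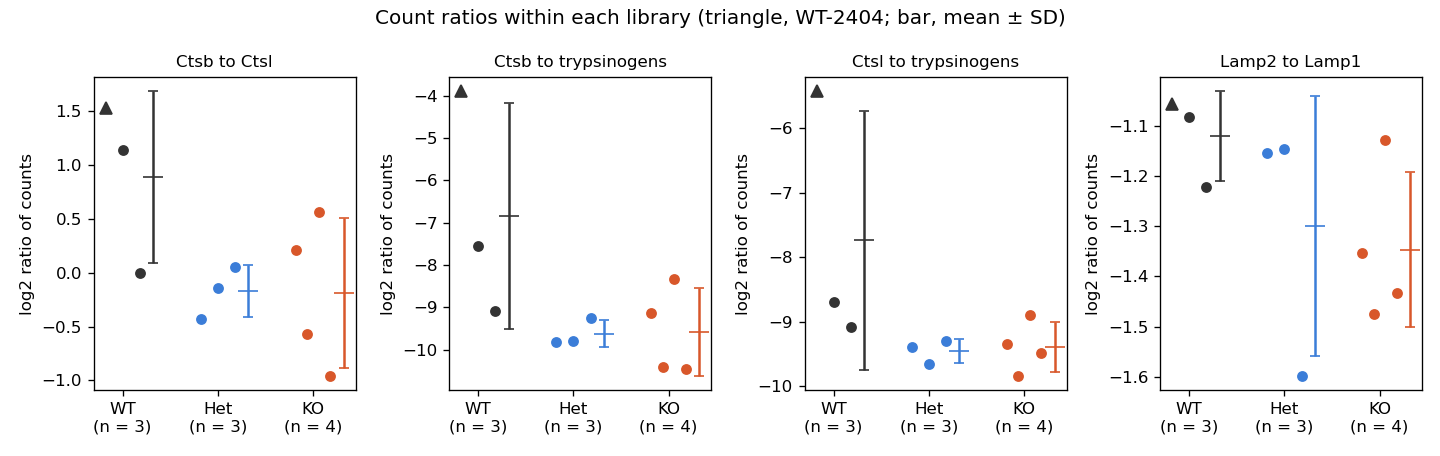
Log2 ratio of counts within each library for Ctsb to Ctsl, Ctsb and Ctsl to the summed trypsinogens, and Lamp2 to Lamp1, by label; points are mice, triangles mark WT-2404 and bars show mean ± SD. WT-2404 is the highest library in each panel, and the Het and KO libraries overlap in each.

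Levels between genes were compared as CPM per kilobase of exon (GENCODE vM21 exons merged per gene). Ctsd was the highest in each group, at 162 in WT, 96.0 in Het and 87.7 in KO libraries. Lamp1 followed in Het and KO at 70.6 and 65.5, and in WT at 80.2 it overlapped Ctss at 84.3 and Ctsb at 74.3. In KO libraries Ctsl at 30.1, Ctsb at 28.3, Ctss at 23.6 and Ctsz at 22.3 formed a run in which each overlapped the next. Lamp2 at 7.15, Ctsk at 2.83 and Tfeb at 1.12 were the lowest there, and Ctsk and Tfeb overlapped through KO-2126. Het libraries had the same order as KO libraries. In WT libraries Ctss stood next to Ctsd and Ctsl came after Ctsz, and most neighbours overlapped because WT-2404 widened their ranges. Annotated exons that a tissue does not use lower such values, so the order holds for this annotation.

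Markers of several other cell types were high in the same WT libraries. The 12 macrophage markers summed to 474 to 1925 CPM in WT, 259.3 to 391 in Het and 152 to 558 in KO libraries. In edgeR all 12 were lower in KO than in WT libraries at a median of -1.67 on the log2 scale, and 0 passed. The 12 fibroblast markers summed to 1355 to 4684 CPM in WT, 548 to 1052 in Het and 479.9 to 1207 in KO libraries, with 11 of 12 lower and a median of -1.53. No macrophage or fibroblast marker was at 0 in any library (0 genes). The 10 lymphocyte markers had a median of -1.23 (10 of 10 lower) and the 10 ductal markers -0.97 (8 of 10 lower). Without WT-2404 the macrophage, fibroblast, lymphocyte and ductal medians were -0.88, -1.17, -1.42 and -0.91. Markers of 3 further cell types did not follow this order. The 8 islet markers summed to 479.6 CPM in WT-2404, 5674 and 3044 in the other WT libraries, 4927 to 9807 in Het and 3575 to 8452 in KO libraries. The 6 endothelial markers summed to 96.6 to 154 CPM in WT, 131 to 151 in Het and 91.2 to 188 in KO libraries, and the 6 adipocyte markers to 32.6 to 41.03, 53.4 to 70.6 and 39.1 to 81.7 CPM.

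The proportion of Ctss to the macrophage markers was narrow beside its level. Its counts per 100 macrophage marker counts were 10.5, 11.3 and 11.9 in WT, 10.8, 10.5 and 10.96 in Het and 11.4, 8.25, 8.70 and 8.16 in KO libraries. The values of KO-2070, KO-2124 and KO-2126 lay below those of all WT and Het libraries. Between the highest and the lowest library this proportion varied 1.46-fold, while the CPM of Ctss varied 16.2-fold. Per 100 fibroblast marker counts Ctss ran from 2.61 to 5.99, a 2.30-fold range. Ctsb per 100 macrophage marker counts ran from 36.2 to 87.6, a 2.42-fold range beside 5.95-fold in CPM, and per 100 fibroblast marker counts from 15.7 to 27.7, a 1.76-fold range. For Ctsl the proportion to macrophage markers was wider than the level, 10.5-fold beside 2.01-fold. The same held for Lamp1 (8.78-fold beside 2.04-fold), Lamp2 (6.57-fold beside 2.14-fold) and Tfeb (16.7-fold beside 1.86-fold). Ctsd varied 4.30-fold per macrophage and 3.31-fold per fibroblast marker counts, beside 3.73-fold in CPM, so its order differed between the lists. Ctsz varied 3.09-fold and 2.49-fold, beside 4.71-fold in CPM. Ctsk ran from 0.232 to 0.744 per 100 fibroblast marker counts and from 0.699 to 1.997 per 100 macrophage marker counts, 3.20-fold and 2.86-fold beside 15.1-fold in CPM. Both marker sums were highest in WT-2404, so none of these genes is tied to 1 of the lists by these values. These proportions are descriptions, and the part of other cell types in the differences between genotypes was not tested.

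**Figure D4:**
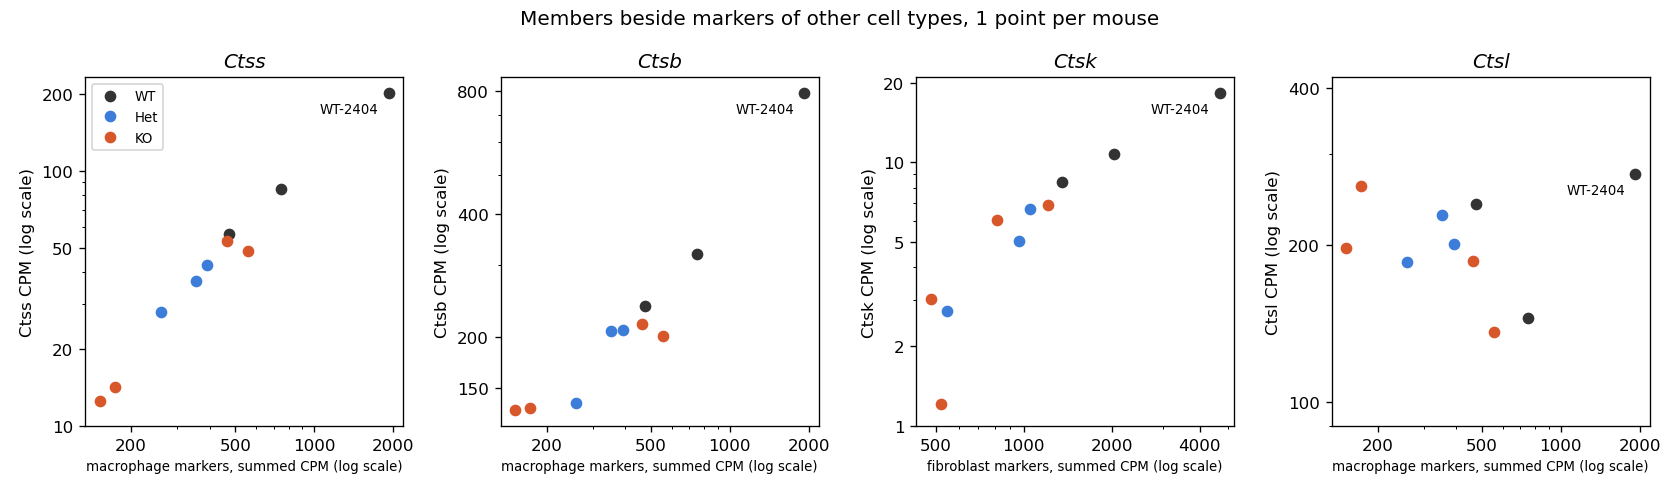
CPM of Ctss, Ctsb, Ctsk and Ctsl (vertical, log scale) against the summed CPM of 12 macrophage or 12 fibroblast markers (horizontal, log scale), 1 point per mouse coloured by label. Ctss and Ctsb lie along a rising band with WT-2404 at its upper end, as does Ctsk with the fibroblast markers, while Ctsl shows no such band.

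The genes most like each member were taken by Pearson correlation of log2 CPM over the 10 libraries, as a description in which WT-2404 carries much of the spread. Ctss was most like Ctsh, the gene of cathepsin H (r = 0.994), the lysozyme gene Lyz2, itself among the macrophage markers (r = 0.994), and Adgra3 (r = 0.989). Without WT-2404 these were 0.996, 0.989 and 0.982. Ctsb was most like Psap, which encodes the precursor of the saposins that aid lipid breakdown in lysosomes (r = 0.993, and 0.980 without WT-2404), Tubb5 (r = 0.988) and Ctsc, the gene of cathepsin C (r = 0.987). Ctsd was most like App, Itgb1 and Mapre1 (r = 0.971 to 0.981), Ctsz like Ccdc80, Coro1b and Adamts15 (r = 0.982 to 0.984) and Ctsk like D630003M21Rik and Pla2g4a (r = 0.987 and 0.982).

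Other members had other neighbours. Ctsl was most like Nfic, Ntan1 and Ugp2 (r = 0.937 to 0.949). Lamp1 was most like Clta, which encodes a clathrin light chain (r = 0.966), and like Tpi1 (r = 0.937). Lamp2 was most like Snx2, G3bp2 and Lgals1 at 0.937 to 0.949, which became 0.696 to 0.743 without WT-2404, and Tfeb like Hif3a, Taf1a and Ccdc61 at 0.881 to 0.899. Among the members, Ctsb and Ctsz had r = 0.973 (0.939 without WT-2404) and Ctsb and Ctss 0.937 (0.933). Ctsb and Ctsl had r = 0.214, which was -0.40 without WT-2404.

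The rest of the lysosomal pathway did not move as a block in KO against WT. Of 8 tested other cathepsins and legumain, 7 were lower and the median log2 fold change was -1.39, which became -0.77 without WT-2404. The dipeptidyl peptidase gene Ctsc had -1.31 (SE 0.32, edgeR adjusted p = 0.116) and Lgmn, the gene of the asparaginyl endopeptidase legumain, -2.01 (SE 0.58, edgeR adjusted p = 0.121). Ctsf was the exception at 0.34 (SE 0.16, edgeR adjusted p = 0.212). The 36 lysosomal hydrolases had a median of -0.48, with 28 lower, and -0.13 without WT-2404. Among them Acp5, a tartrate-resistant acid phosphatase, had -1.24 (SE 0.34), Gm2a, the GM2 activator, -1.17 (SE 0.34), the sialidase gene Neu1 0.38 (SE 0.18) and the sphingomyelinase gene Smpd1 0.38 (SE 0.19). Not 1 of the genes in these lists passed in edgeR (0 genes).

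Lists of other lysosomal parts lay near the median of all genes. The medians were 0.088 for 18 lysosomal membrane proteins (8 lower), -0.091 for 20 tested V-ATPase subunits, which acidify the lysosome (11 lower), and 0.031 for 12 genes of lysosomal enzyme sorting (6 lower). Examples were the cholesterol transporter Npc1 at -0.58 (SE 0.20), the sialic acid transporter Slc17a5 at 0.54 (SE 0.23), Atp6v1a at -0.59 (SE 0.22), the phosphotransferase subunit Gnptg at 0.79 (SE 0.27) and the sorting receptor M6pr at -0.42 (SE 0.20). Of 13 factors and regulators of the TFEB family, 10 were higher (median 0.30), while Tfec, a relative of Tfeb, had -2.69 (SE 0.72) on low counts, with 0 counts in its lowest library. The 20 autophagy genes had a median of 0.30 with 16 higher, and 5 had an unadjusted p under 0.05, all higher, as did 9.6% of all genes. Without WT-2404 the autophagy median was 0.19, with 4 such genes, and that of the V-ATPase subunits was 0.046. Gabarapl1, an ATG8-family gene, had 0.83 (SE 0.25) and Wipi2 0.64 (SE 0.20). None of these genes passed in edgeR (0 genes).

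Inhibitors of the cathepsins were few. Of 3 tested cystatins and stefins, Cst3, which encodes cystatin C, averaged 189 ± 46.2 CPM over WT libraries (SD, n = 3) and 281 ± 77.4 CPM over KO libraries (SD, n = 4). Its log2 fold change was 0.57 (SE 0.30). Cst6 had 1.92 (SE 0.50, edgeR adjusted p = 0.116) at a lowest count of 11, and Cstb -0.16. Spink1, which encodes the trypsin inhibitor of the acinar cell, had 1.27 (SE 0.49, edgeR adjusted p = 0.157).

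**Figure D5:**
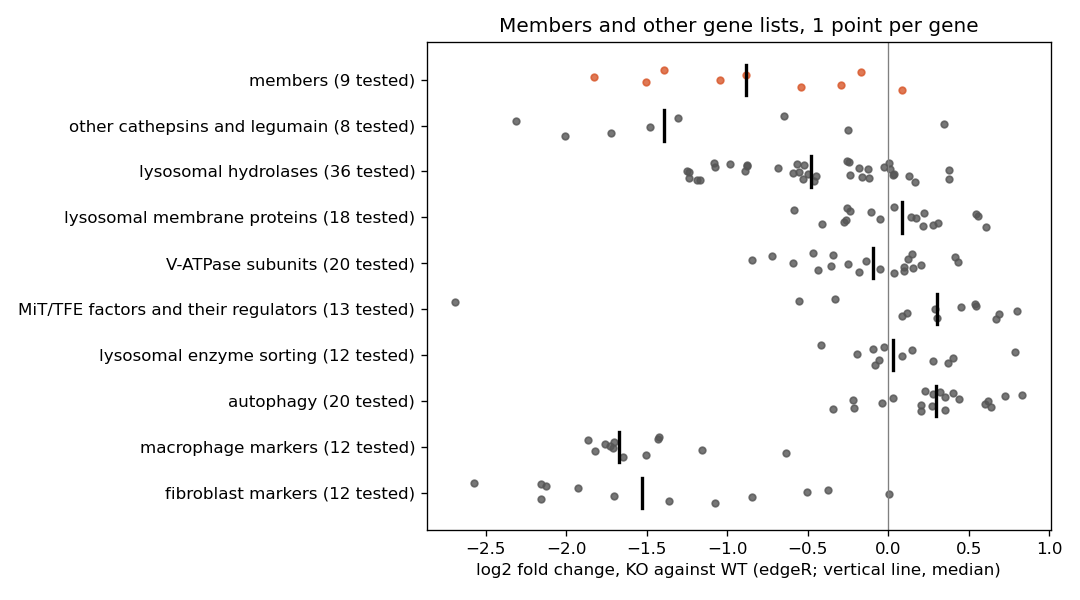
Log2 fold change of KO against WT (edgeR, horizontal) for each tested gene of the 9 members and 9 other lists; points are genes and vertical lines are medians. The members' median of -0.88 lies between that of the lysosomal hydrolases (-0.48) and those of the macrophage (-1.67) and fibroblast markers (-1.53), and lysosomal membrane proteins and V-ATPase subunits centre near 0.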

How the data were processed

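The authors deposited raw gene counts in 1 table, and its 10 columns were matched to mice by label and number. Per the submitters' processing notes the build was mm10, and DRAGEN, STAR and Cufflinks are named without a role. The counting tool and the annotation are not given in the sources used here. Per the labels' protocols, tissue was frozen and pulverised, and libraries came from a stranded mRNA kit. The 2 summary rows were left out (2.59% to 8.71% reads outside genes, 0.101% to 0.584% ambiguous).

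Counts were tested in edgeR 4.0.16 (TMM, filterByExpr with a minimum count of 10, robust quasi-likelihood test, 1 fit over all 10 libraries, two-sided, Benjamini-Hochberg over 13688 genes, threshold 0.05). SEs came from the quasi-F statistic. CPM were computed on TMM-scaled library sizes, with a prior count of 2 for log2 CPM. Alternatives were DESeq2 1.42.0, no TMM factors, a filter of 1 count, the enzyme share as a covariate, enzyme-free library sizes (chosen after seeing the data) and leaving out each library. On simulated data for KO against WT with the genes' median dispersion, 13369 genes were tested. Of the genes changed by 1 on the log2 scale 46 of 100 were recovered, and of those changed by 2, 100 of 100. Every simulated gene had that same dispersion and, planted changes aside, the same scaled mean in all libraries. No simulated library stood apart as WT-2404 does, so these shares do not give the power for the genes described here.

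The 9 genes and all lists were chosen with earlier results of these data known. Named genes were the 9, up to 2 per direction and list by unadjusted p in KO against WT, and the 3 most correlated with each of the 9. The count ratios within libraries were compared between groups by exact permutation of the difference in mean log2 ratio. Libraries of a group differed by more than sampling noise (chi-square over degrees of freedom from 26.5 to 988 for the 12 pairs), and each counted as 1 replicate. That replicates are separate mice rests on the mouse numbers in their titles. A label counts 1 more WT mouse, not analysed here. A further allele shared by all groups and 2 of the correlated genes are not reported here. Ctsk had the lowest count of the 9 genes, 12.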

Additional observations from a re-analysis of the deposited data

How the results depend on the processing

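Left out in turn, single libraries moved the number of genes called by edgeR in KO against WT from 0 to 1933 and of the 9 genes called from 0 to 4, the highest without WT-2067. In Het against WT the numbers ran from 0 to 1158 (8.17% of genes tested) and from 0 to 2 (Ctsb and Ctsz), again highest without WT-2067. In KO against Het they were 0 throughout. The median of the 9 genes ran from -1.09 to -0.37 for KO and from -0.96 to -0.22 for Het against WT, nearest 0 without WT-2404. The enzyme share as a covariate brought it nearer still, to -0.29 and -0.15, with 0 of the 9 genes at an unadjusted p under 0.05 in either comparison (6 and 4 without the covariate). DESeq2, with its own size factors and 18135 genes tested, called 1015 genes and 4 of the 9 in KO against WT, and 385 genes and 0 of the 9 in Het against WT. Library size alone shifts the median of all genes to -1.17 in KO and -1.36 in Het libraries against WT. With it, 2835 genes (20.7% of those tested) and 3125 genes (22.8%) were called, all lower than in WT. These held 8 of the 9 in both comparisons, and the medians of the 9 were -2.42 and -2.44. In KO against Het that scaling gave positive values for Ctsb (0.15), Ctsl (0.0034), Ctsd (0.022), Ctss (0.22), Ctsz (0.19) and Ctsk (0.19), relative to 0.17 over all genes.

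Tfeb in KO against WT changed sign with library size alone (-1.03), with the enzyme share as a covariate (-0.051) and with counts outside enzymes as library size (-0.11). The same settings gave Tfeb -1.30, -0.11 and -0.25 in Het against WT. With the covariate Lamp1 in Het against WT was 0.055, and with counts outside enzymes Ctsz in KO against Het was 0.049. The ratio of Ctsl to trypsinogens in KO against Het was -0.034 on the log2 scale by group medians. The cause of these changes was not tested.

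Leaving out 1 library changed the sign of Ctsl (-0.40 to 0.0073) and Tfeb (-0.038 to 0.26) in KO against WT. It did the same for Ctsl (-0.33 to 0.10), Lamp1 (-0.33 to 0.088) and Tfeb (-0.22 to 0.22) in Het against WT. In KO against Het it did so for Ctsl (-0.24 to 0.039), Ctss (-0.51 to 0.10), Ctsz (-0.20 to 0.17), Ctsk (-0.43 to 0.19) and Tfeb (-0.13 to 0.31). The log2 ratios in KO against Het ran from -0.27 to 0.24 for Ctsb to Ctsl, from -0.38 to 0.33 and -0.11 to 0.21 for Ctsb and Ctsl to trypsinogens, and from -0.20 to 0.029 for Lamp2 to Lamp1. Ctsb, Ctsd, Ctss, Ctsz, Ctsk and Lamp2 kept their sign against WT in Het and KO libraries in every alternative run, but their size did not hold, from -1.39 to -0.49 for Ctsb in KO against WT with the covariate. No paired analysis was possible because the labels give no litter, batch or date by which mice could be paired.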

Other observations

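Ctrc, which encodes chymotrypsin C, an enzyme that degrades trypsinogen, varied widely within each label. It was at 1.47, 117 and 212 CPM in WT libraries, at 9009, 252 and 166 CPM in Het libraries and at 134, 11503, 4701 and 184 CPM in KO libraries. Het-2066, KO-2070 and KO-2124 were far above the others, and WT-2404 was far below them. In those 3 libraries Ctsb ran from 133 to 202 CPM and Ctsl from 136 to 198 CPM, and in the other 4 Het and KO libraries from 134 to 216 and from 187 to 260.4 CPM.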
